A study of Mus musculus with 3 samples.

Results

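Glycolysis breaks glucose down to pyruvate in the cytosol, and lactate dehydrogenase turns pyruvate into lactate, which leaves the cell through monocarboxylate carriers. The hypoxia-inducible factor HIF-1 raises transcription of many of these genes when oxygen is low, because its alpha subunit is then no longer hydroxylated by the EGLN prolyl hydroxylases and degraded through the von Hippel-Lindau protein. In macrophages the same programme is known to accompany inflammatory activation. The gene set described here holds 37 genes of these steps, chosen by symbol from the deposited table of 46078 genes: 19 glycolytic enzymes, 5 sugar and lactate carriers, 3 regulatory enzymes and 10 genes of the HIF pathway and its targets. All 37 symbols were found, each on 1 row.

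The genes were measured in 3 cultures of RAW 264.7, a mouse macrophage line from a tumour induced by Abelson murine leukemia virus, with 1 sequencing library for each condition. The study asked what gold nanocages change in cells damaged by HU. Cells were given 0.5 mM hydroxyurea (HU) together with gold nanocages, HU alone, or neither, the last being the control, and RNA was taken after 12 hours. HU blocks ribonucleotide reductase and so stalls DNA replication; the dose of the nanocages is not given in the sources used here, and all 3 cultures grew in medium with 10% serum. No culture was repeated, so no difference below has a replicate check and no p-value is given. In bulk RNA, fewer cells of a type and less RNA per cell cannot be told apart.

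The libraries held 18644333 counted reads for HU plus gold nanocages, 20057329 for HU and 14990564 for control. Macrophage markers summed to between 2141 and 2342 FPKM (the authors' value: the read count scaled to exonic length and to the library's total count), led by Lyz2, Cd68 and Csf1r, while 2 of the 8, Mrc1 and Fcgr3, had a mean under 1 FPKM. None of the 25 markers of fibroblasts, B cells, T cells, dendritic cells, neutrophils and epithelium reached a mean of 1 FPKM, and the summed level of each of those lists was at most 0.46 FPKM. The 37 genes took 1.57% of the reads with HU plus gold nanocages (exact 95% interval 1.57 to 1.58), 1.65% with HU (1.65 to 1.66) and 1.63% in control (1.62 to 1.63). Reads in the rows of near-identical copies of Gapdh and Eno1, described below, are not part of these shares. Intervals here and below are built from read counts with 1 library per condition, so they cover counting error only. The reads carry no molecular identifiers, so duplicate reads cannot be told from separate molecules.

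Of the 37 genes, 34 had a mean of at least 1 FPKM over the 3 libraries and are called measured. The other 3 had no read in any library: Ldhb, which encodes the heart-type lactate dehydrogenase subunit, Egln3, an oxygen-sensing prolyl hydroxylase, and P4ha2, a collagen prolyl hydroxylase subunit. A count of 0 allows up to 3 reads, or 0.161, 0.150 and 0.200 CPM (reads scaled to the library's total count only) with HU plus gold nanocages, HU and control. The measured gene with the lowest mean was Eno2 at 1.82 FPKM.

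**Figure D1:**
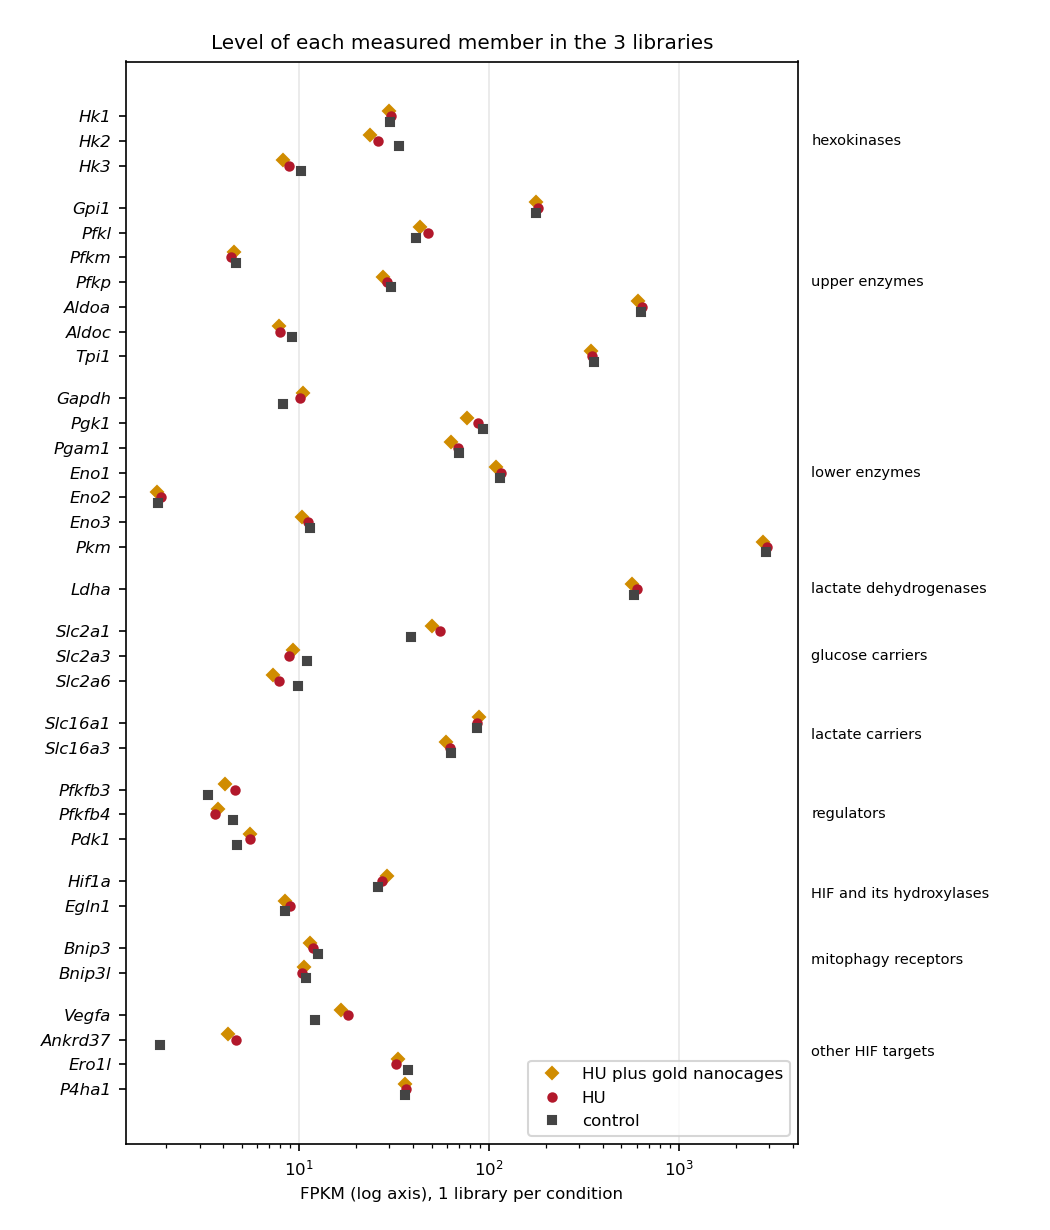
FPKM on a log axis for each of the 34 measured genes, ordered by role, with a diamond for HU plus gold nanocages, a circle for HU and a square for control, 1 library each. Pkm has the highest mean, 2865 FPKM, and Eno2 the lowest, 1.82; for most enzymes the symbols overlap, while Hk2, Slc2a1, Vegfa and Ankrd37 are spread out.

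Folds of single genes are plain ratios of CPM with an exact (Clopper-Pearson) 95% interval from both read counts. Where that interval excludes 1, the gene stood above or below counting error; across the whole table the same rule was applied to 10849 genes with a mean of at least 1 FPKM. In HU against control, 10 of the 34 measured genes were above counting error, beside 18.7% of all genes, and 9 were below, beside 20.1%. At least 1.2-fold differences were found upward in 5 of 34 (Ankrd37, Vegfa, Slc2a1, Pfkfb3 and Gapdh, whose row is uncertain, as described below), beside 13.1% of all genes, and downward in 4 of 34 (Hk2, Slc2a6, Pfkfb4 and Slc2a3), beside 11.6%. The 1.2-fold shares were near those of the whole table. Of the 10 genes with a mean of at least 50 FPKM, 3 were above and 1 below, beside 25.9% and 25.4% of the 1258 genes of the table at that level. None of the 10 was 1.2-fold higher or lower, beside 3.74% and 4.93%. The median log2 ratio of the 34 (FPKM with a pseudocount of 1, which understates low genes) was 0.0053, and that of all genes was -0.0074.

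HU plus gold nanocages against HU gave a different count: 14 of the 34 measured genes were below counting error, beside 7.78% of all genes, and 1 was above, beside 8.35%. None of the 34 differed by 1.2-fold, which 5.22% of all genes did upward and 4.48% downward. The median log2 ratio was -0.07 over the 34 and 0.0037 over all genes. Highly expressed genes have narrow counting intervals and pass this rule more often: among the 1258 genes with a mean of at least 50 FPKM, 20.6% were below and 13.3% above, with a median of -0.01. Of the 10 genes of the set at that level, 8 were below and none above, with a median of -0.08. None of the 10 reached 1.2-fold, which 1.03% of the 1258 did upward and 0.477% downward.

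HU plus gold nanocages against control had 8 of 34 above counting error, beside 19.6% of all genes, and 16 of 34 below, beside 20.1%. At least 1.2-fold differences were found upward in 5, beside 14% of all genes: Ankrd37, Vegfa, Slc2a1, Pfkfb3 and Gapdh, whose row is uncertain. Downward there were 4, beside 12%: Hk2, Slc2a6, Hk3 and Pgk1. Of the 10 genes at 50 FPKM or more, none was above (24.1% of the 1258) and 8 were below (31.3%), 1 of them, Pgk1, by 1.2-fold (5.56%), with none that much higher (4.45%). The ratios to control and to HU share libraries, so each gene's values are given side by side and the contrasts are not set against each other.

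**Figure D2:**
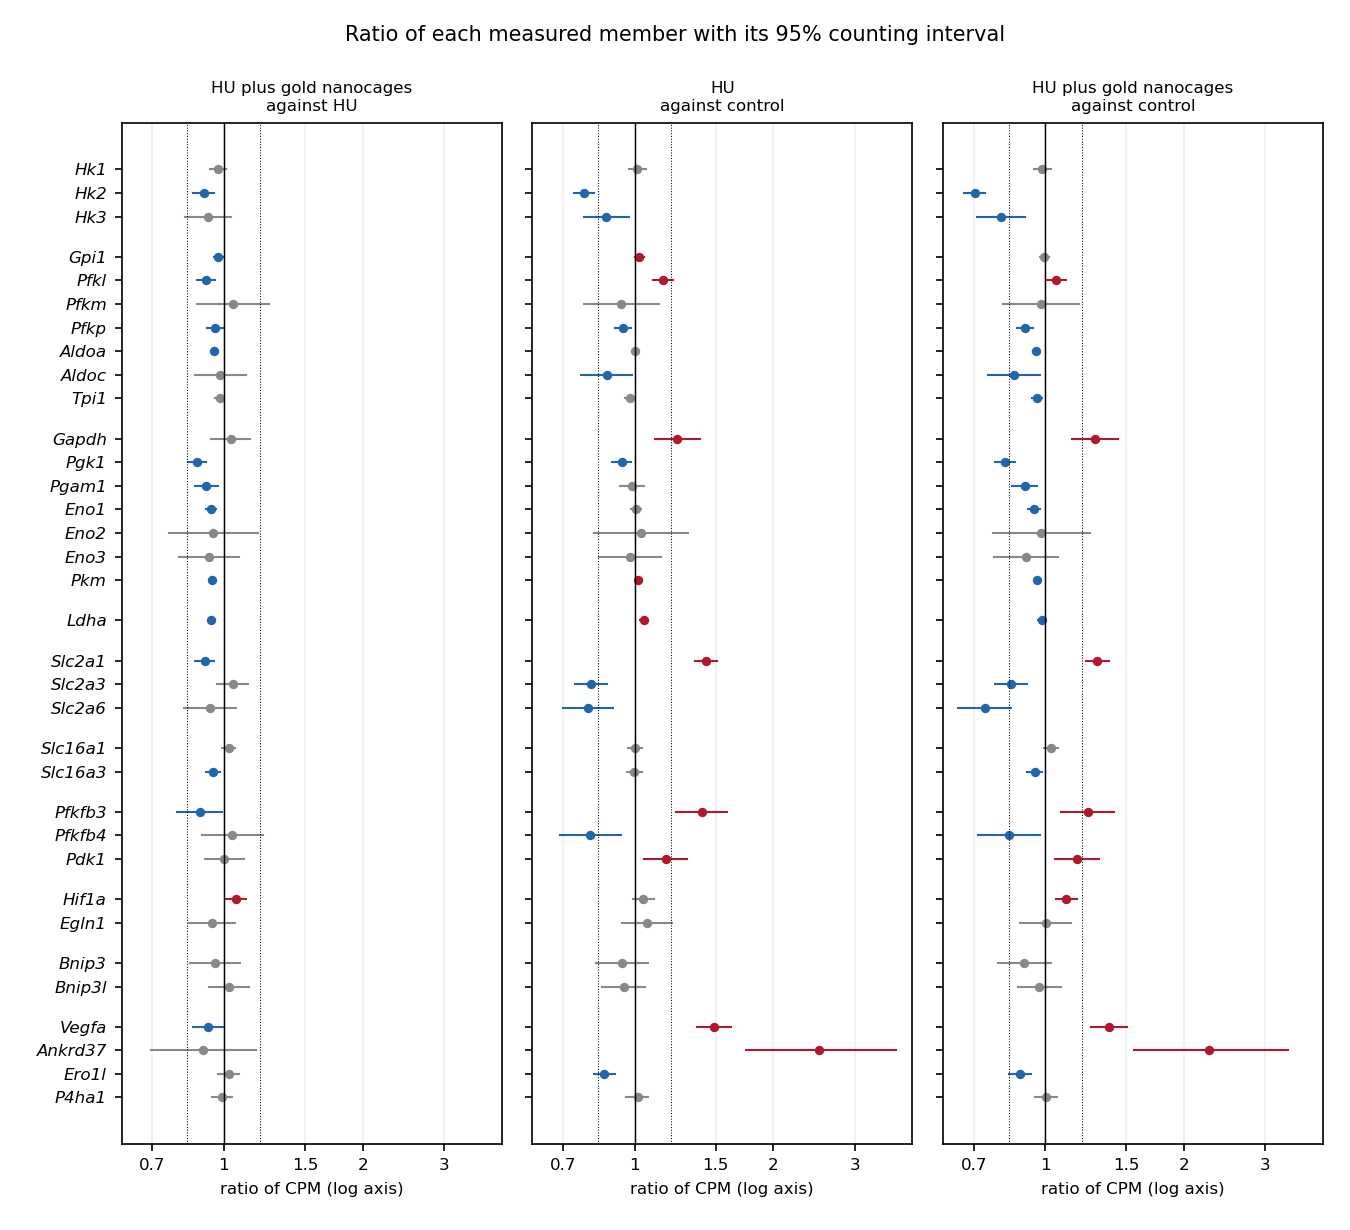
Ratio of CPM for each measured gene on a log axis, with its exact 95% counting interval as a bar, in the 3 contrasts; red marks genes above and blue genes below counting error, grey those within, and dotted lines mark 1.2-fold. In HU plus gold nanocages against HU all points lie between the dotted lines, 14 of them blue; in both contrasts with control Ankrd37, Vegfa, Slc2a1 and Pfkfb3 lie to the right and Hk2 to the left.

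Glucose enters these cells through facilitative carriers, of which Slc2a1, encoding GLUT1, was the most abundant. Slc2a1 stood at 50.4 FPKM with HU plus gold nanocages, 55.5 with HU and 38.9 in control. It was 1.43-fold higher in HU than in control (1.35 to 1.51) and 1.10-fold lower with HU plus gold nanocages than with HU (1.05 to 1.15), which left it 1.30-fold above control (1.23 to 1.37). The other glucose carriers of the set, Slc2a3 and Slc2a6, were lower in HU than in control. Slc2a3, encoding GLUT3, had 9.31, 8.90 and 11.1 FPKM in the same order and was 1.24-fold lower in HU than in control (1.15 to 1.34). Slc2a6, encoding the lysosomal carrier GLUT6 of macrophages, had 7.33, 7.86 and 9.91 FPKM and was 1.26-fold lower (1.11 to 1.43). Neither of these carriers differed between HU plus gold nanocages and HU beyond counting error. Slc2a1 thus made up 75.2% of the summed FPKM of the 3 carriers with HU plus gold nanocages, 76.8% with HU and 64.9% in control.

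Hexokinases commit glucose to metabolism by phosphorylation. Hk2, the inducible mitochondrial hexokinase, had 23.6 FPKM with HU plus gold nanocages, 26.1 with HU and 33.6 in control. All 3 levels were apart beyond counting error: HU was 1.29-fold below control (1.22 to 1.35), and HU plus gold nanocages was 1.11-fold below HU (1.05 to 1.16) and 1.42-fold below control (1.35 to 1.499). This was the lowest ratio of the set in both contrasts with control. Hk1, the widely expressed hexokinase, had 29.8, 30.7 and 30.2 FPKM in the same order, and each of its intervals included 1. Hk3, a hexokinase of myeloid cells, had 8.23, 8.91 and 10.3 FPKM and was 1.15-fold lower in HU than in control (1.03 to 1.29). Hk2 was the leading hexokinase in control, with 45.3% of the family's FPKM, but Hk1 led in the treated libraries, with 48.4% for HU plus gold nanocages and 46.7% for HU against 40.8% in control.

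Phosphofructokinase, the main control point of the pathway, is encoded by Pfkl, Pfkp and Pfkm. Pfkl, the liver-type subunit, had 43.5 FPKM with HU plus gold nanocages, 47.6 with HU and 41.3 in control. It was 1.15-fold higher in HU than in control (1.10 to 1.21) and 1.09-fold lower with HU plus gold nanocages than with HU (1.05 to 1.14). Pfkp, the platelet-type subunit, had 27.8, 29.0 and 30.7 FPKM in the same order. It was 1.06-fold lower in HU than in control (1.02 to 1.10) and 1.05-fold lower with HU plus gold nanocages than with HU (1.01 to 1.09). The muscle-type Pfkm, near 4.5 FPKM in each library, was within counting error in each contrast.

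Pfkfb3 and Pfkfb4 encode enzymes that set the level of fructose 2,6-bisphosphate, the activator of phosphofructokinase. Pfkfb3 had 4.09 FPKM with HU plus gold nanocages, 4.62 with HU and 3.31 in control, from 577, 701 and 375 reads. In HU it was 1.40-fold above control (1.23 to 1.59), and with HU plus gold nanocages 1.13-fold below HU (1.01 to 1.26). Pfkfb4 had 3.76, 3.61 and 4.50 FPKM in the same order and was 1.25-fold lower in HU than in control (1.07 to 1.45). The leading enzyme of the pair was therefore Pfkfb3 in both treated libraries, with 52.1% of the summed FPKM for HU plus gold nanocages and 56.1% for HU, against 42.4% in control.

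**Figure D3:**
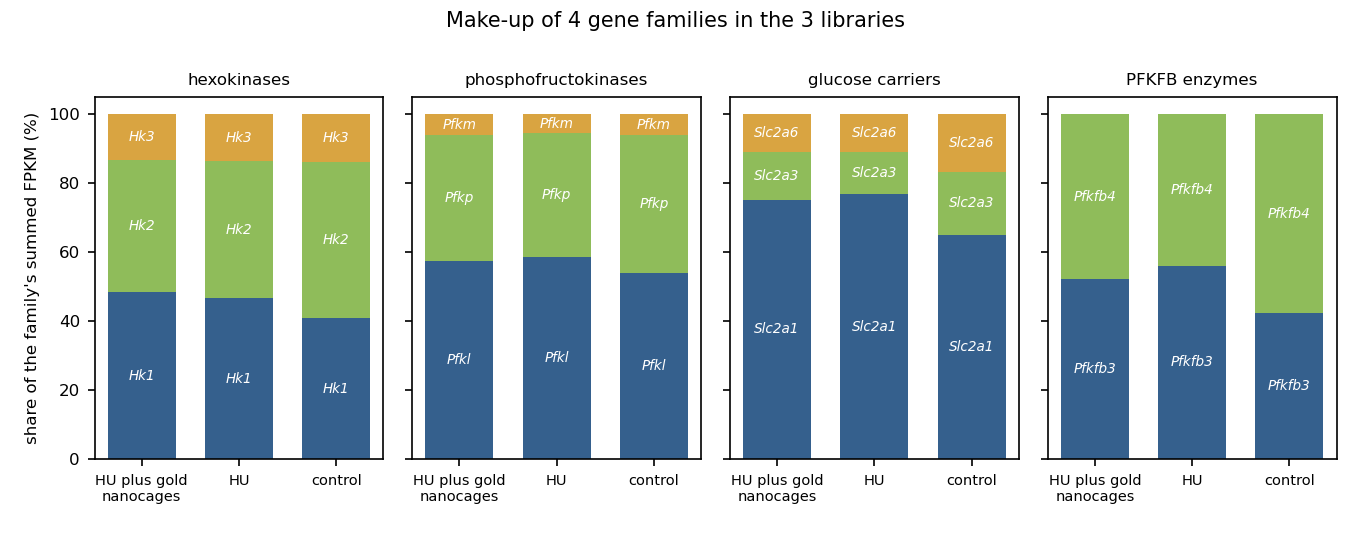
Share of each gene in the summed FPKM of its family, in percent, for 4 families, as stacked bars for HU plus gold nanocages, HU and control from left to right, 1 library each. Hk1 and Slc2a1 take larger shares in both treated libraries than in control, and Pfkfb3 exceeds Pfkfb4 there.

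The abundant enzymes below phosphofructokinase stood at nearly the same level in HU and in control. Aldoa, the main aldolase, had 608.8 FPKM with HU plus gold nanocages, 639.7 with HU and 637.2 in control, and its interval in HU against control was 0.988 to 1.02. Pkm, pyruvate kinase, was the most abundant gene of the set and ranked 7 among all genes by mean FPKM. It had 2774 FPKM with HU plus gold nanocages, 2936 with HU and 2886 in control. Its ratio of 1.02 in HU against control was above counting error (1.01 to 1.025), a narrow interval set by its 134417, 153063 and 112449 reads. Ldha, the muscle-type lactate dehydrogenase subunit, had 569.2, 605.8 and 579.2 FPKM in the same order and was 1.05-fold higher in HU than in control (1.03 to 1.06). With no read for Ldhb, Ldha accounted for all lactate dehydrogenase reads of the set.

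With HU plus gold nanocages these enzymes were lower than with HU by a few percent each. Aldoa was 1.05-fold lower (1.03 to 1.07), Pkm 1.06-fold (1.05 to 1.07) and Ldha 1.06-fold (1.05 to 1.08). Gpi1, the isomerase that follows hexokinase, was 1.03-fold lower (1.01 to 1.05), at 176.8 FPKM with HU plus gold nanocages, 181.8 with HU and 177.5 in control. Tpi1, triose phosphate isomerase, had 343.5, 350.5 and 358.3 FPKM, and its interval against HU included 1. In all, 10 of the 18 measured enzymes were below counting error in this contrast and none above, beside 7.78% and 8.35% of all genes. Many of these enzymes are highly expressed, and among the 1258 genes with a mean of at least 50 FPKM the shares were 20.6% and 13.3%.

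The largest of these differences among the enzymes was that of Pgk1, a phosphoglycerate kinase and a classic HIF target. It had 76.7 FPKM with HU plus gold nanocages, 87.7 with HU and 93.5 in control. Pgk1 was 1.14-fold lower with HU plus gold nanocages than with HU (1.09 to 1.199) and 1.22-fold lower than in control (1.16 to 1.28); HU was 1.07-fold below control (1.02 to 1.12). Pgam1, the mutase of the next step, had 63.0, 68.8 and 69.8 FPKM in the same order and was 1.09-fold lower with HU plus gold nanocages than with HU (1.03 to 1.16). The minor isoform genes Aldoc, Eno2 and Eno3, at 1.78 to 11.4 FPKM, were within counting error against HU; Aldoc was 1.15-fold lower in HU than in control (1.01 to 1.31).

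**Figure D4:**
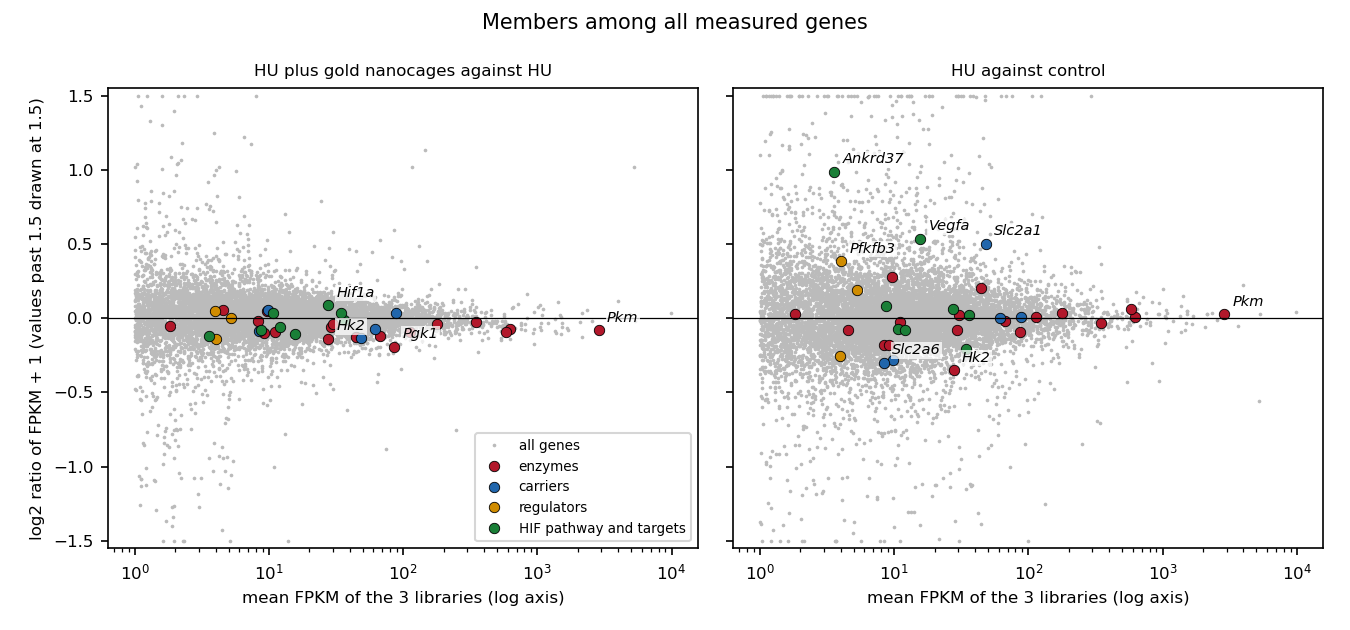
Log2 ratio of FPKM with a pseudocount of 1 against mean FPKM on a log axis, for all 10849 measured genes in grey and the genes of the set in colour by role, in HU plus gold nanocages against HU (left) and HU against control (right); values past 1.5 are drawn at 1.5. On the left the abundant enzymes lie slightly below 0, with Pgk1 lowest; on the right Ankrd37, Vegfa and Slc2a1 stand above and Hk2 below.

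Gapdh, glyceraldehyde-3-phosphate dehydrogenase, is one of the most abundant messages of most cells, but its row held few reads: 813 with HU plus gold nanocages, 844 with HU and 510 in control, or 10.6, 10.2 and 8.23 FPKM. A processed pseudogene of it, Gm13394, on the minus strand of chromosome 2 at 28933610 to 28934609 of mm10, held 28170, 31065 and 22422 reads in the same order. The copies Gm5559, with 218, 270 and 199 reads, Gm7336, with 148, 165 and 138, and Gm12070, with 113, 137 and 101, held far fewer. The Gm13394 row stood at 1511, 1549 and 1496 FPKM. In the GENCODE M21 transcripts, Gm13394 is identical to the Gapdh coding sequence at 999 of 1000 aligned bases. The one substitution is A346C, with Gapdh first and positions counted from 1 at the first base of its start codon. The 90 coding bases from position 301 to 390 show how little separates the pair; the capital marks the base that differs:
Gapdh: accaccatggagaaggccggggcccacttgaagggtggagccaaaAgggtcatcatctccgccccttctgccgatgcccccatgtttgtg
Gm13394: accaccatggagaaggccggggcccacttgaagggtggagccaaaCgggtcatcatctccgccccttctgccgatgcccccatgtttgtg
The row labelled Gapdh was 1.24-fold higher in HU than in control (1.11 to 1.38) and 1.28-fold higher with HU plus gold nanocages than in control (1.15 to 1.44). A sum was taken over this row and 50 copies, each sharing at least 50 words of 100 bases with Gapdh. Some of the copies share only a small part of it. The Gapdh row held 2.17% to 2.74% of the summed reads. Together the rows were 1.04-fold higher in HU than in control (1.02 to 1.055). The sum was 1.02-fold lower with HU plus gold nanocages than with HU (1.01 to 1.04), and within counting error of control (1.01-fold, 0.996 to 1.03). Which locus these reads came from was not tested, so the Gapdh row is given as the files list it.

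Eno1, the main enolase gene, also has near-identical copies. Its row had 10896 reads with HU plus gold nanocages, 12484 with HU and 9263 in control. The retrogene Eno1b had 11446, 12539 and 9486 reads in the same order, and the pseudogene Gm4735 had 9475, 10498 and 7682. The 3 rows together were 1.04-fold lower with HU plus gold nanocages than with HU (1.02 to 1.05), against 1.07-fold for Eno1 alone (1.04 to 1.09). In HU against control neither the Eno1 row (1.01-fold, 0.981 to 1.04) nor the sum (1.00-fold, 0.989 to 1.02) differed beyond counting error. Among the 100-base words of Pgk1 and Pgam1, 51.7% and 33.9% also occur in other annotated genes, yet their copies held few reads: Pgk1-rs7 had 106, 140 and 93, and Pgam1-ps2 had 128, 164 and 121. The Pkm copy listed as RP24-324L19.3 had 1006, 1109 and 787 reads, and Pkm held 99.3% of their sum in each library. Summed with their copies, Pgk1 and Pgam1 stayed below counting error with HU plus gold nanocages against HU, at 1.15-fold (1.095 to 1.201) and 1.10-fold lower (1.04 to 1.16).

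**Figure D5:**
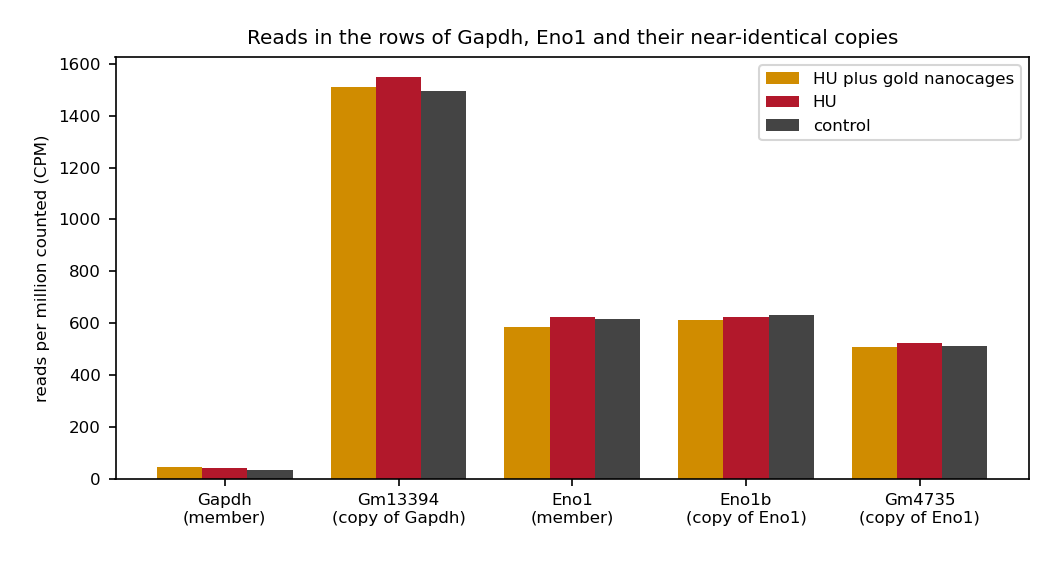
CPM (reads scaled to the library's total) in the rows of Gapdh and its copy Gm13394 and of Eno1 and its copies Eno1b and Gm4735, with bars for HU plus gold nanocages, HU and control, 1 library each. The Gapdh row holds 34.0 to 43.6 CPM beside 1496 to 1549 for Gm13394, and the 3 enolase rows hold similar numbers.

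Lactate leaves by Slc16a3, encoding MCT4, and moves in either direction by Slc16a1, encoding MCT1. Slc16a1 had 89.3 FPKM with HU plus gold nanocages, 87.1 with HU and 86.8 in control, and it was within counting error in each contrast. Slc16a3 had 59.7, 62.9 and 62.9 FPKM and was 1.05-fold lower with HU plus gold nanocages than with HU (1.02 to 1.09). Their HU to control ratios, 1.00 for both, had intervals of 0.970 to 1.04 and 0.964 to 1.04. Pdk1, a kinase that shuts pyruvate dehydrogenase, had 5.51, 5.50 and 4.71 FPKM and was 1.17-fold higher in HU than in control (1.05 to 1.30). It was level between HU plus gold nanocages and HU (1.00-fold, 0.909 to 1.10).

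Among the HIF genes, the message of the factor itself differed little. Hif1a, the oxygen-regulated subunit, had 29.1 FPKM with HU plus gold nanocages, 27.3 with HU and 26.1 in control. It was the only gene of the set above counting error with HU plus gold nanocages against HU (1.06-fold, 1.01 to 1.12), and it was 1.11-fold above control (1.05 to 1.17). Its ratio in HU against control (1.05, 0.991 to 1.10) was within counting error. Egln1, the main hydroxylase that marks HIF for degradation, had 8.50, 9.02 and 8.48 FPKM and was within counting error in each contrast. HIF-1 alpha is controlled mainly as a protein, which these libraries do not measure.

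Targets of HIF differed in direction between HU and control. Vegfa, the angiogenic growth factor, had 16.7 FPKM with HU plus gold nanocages, 18.1 with HU and 12.2 in control. It was 1.49-fold higher in HU than in control (1.36 to 1.62) and 1.08-fold lower with HU plus gold nanocages than with HU (1.005 to 1.16). Ankrd37, an ankyrin-repeat gene strongly induced by hypoxia, had 4.21, 4.66 and 1.85 FPKM, from 110, 131 and 39 reads. Its 2.51-fold difference between HU and control (1.74 to 3.69) was the largest of the set, and its interval with HU plus gold nanocages against HU included 1 (0.695 to 1.17). Lrp2bp, which overlaps Ankrd37 on the other strand, held 10, 7 and 12 reads. Ero1l, an oxidase that forms disulphide bonds in the endoplasmic reticulum, had 33.1, 32.3 and 37.6 FPKM and was 1.16-fold lower in HU than in control (1.10 to 1.23). P4ha1, a collagen prolyl hydroxylase subunit, had 36.2, 36.5 and 36.0 FPKM, with a ratio of 1.015 in HU against control (0.960 to 1.07).

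Bnip3 and Bnip3l encode mitochondrial receptors that hand mitochondria to the autophagy machinery and are HIF targets. Bnip3 had 11.4 FPKM with HU plus gold nanocages, 11.9 with HU and 12.7 in control, and Bnip3l had 10.6, 10.4 and 10.96. All intervals of both genes included 1. For HU plus gold nanocages against HU they ran from 0.846 to 1.09 for Bnip3 and from 0.927 to 1.13 for Bnip3l. Of 5 further measured mitophagy genes none was above or below counting error in that contrast, beside 8.35% and 7.78% of all genes. In HU against control none was above and 1, Bcl2l13, was below (1.09-fold lower, 1.01 to 1.17), beside 18.7% and 20.1%.

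The promoters of the set were read from RefSeq (GRCm38.p6, the assembly of mm10), with Ero1l listed there as Ero1a. Entries were found for 35 of the 37 genes, with 49 start sites; the genes not matched were Slc2a3 and Bnip3l. The core of the hypoxia response element was searched as ACGTG and as GCGTG on both strands in the 250 bases before each start. ACGTG occurred before 24 of the 49 starts (49%), against 16.6% of all 32851 promoters and 22.7% of the 9694 promoters of genes with a mean of at least 1 FPKM. GCGTG occurred before 28 (57.1%), against 28.2% and 46.5%. Either word occurred before 40 (81.6%), against 38.6% and 58%. Starts of the same gene were counted separately, and their windows can overlap. The 49 include the starts of Ldhb, Egln3 and P4ha2, which had no read and each have a match. The promoters of genes with a mean of at least 1 FPKM are therefore not a fully like group. Counted by gene, ACGTG occurred before at least 1 start of 21 of the 35 genes, GCGTG of 24 and either word of 32. The shares of all promoters above are per start, so these counts by gene have no like share beside them. A gene with several starts has more chances of a match. The set was chosen to include HIF targets. Windows of 5 genes are shown for their place in the results: Ankrd37 and Slc2a1, higher in HU; Hk2, lowest in HU; Pgk1, lowest enzyme with nanocages; and Ldha, chosen for its match count, which Bnip3 shares. Capitals mark the matches, given 5′ to 3′ on the gene's strand:
Ankrd37: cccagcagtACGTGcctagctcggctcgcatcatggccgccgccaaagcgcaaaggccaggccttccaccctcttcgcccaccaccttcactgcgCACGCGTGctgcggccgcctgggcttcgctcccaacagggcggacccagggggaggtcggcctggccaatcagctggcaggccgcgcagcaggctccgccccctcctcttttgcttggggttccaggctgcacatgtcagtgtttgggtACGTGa
Slc2a1: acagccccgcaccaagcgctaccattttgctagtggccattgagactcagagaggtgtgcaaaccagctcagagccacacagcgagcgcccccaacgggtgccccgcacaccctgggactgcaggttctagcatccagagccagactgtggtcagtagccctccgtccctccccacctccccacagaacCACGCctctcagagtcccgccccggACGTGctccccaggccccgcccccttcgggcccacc
Hk2: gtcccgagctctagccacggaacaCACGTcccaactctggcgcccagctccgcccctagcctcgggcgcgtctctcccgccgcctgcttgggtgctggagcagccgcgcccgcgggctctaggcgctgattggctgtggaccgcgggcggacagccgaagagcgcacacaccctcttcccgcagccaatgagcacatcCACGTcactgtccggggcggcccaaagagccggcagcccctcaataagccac
Pgk1: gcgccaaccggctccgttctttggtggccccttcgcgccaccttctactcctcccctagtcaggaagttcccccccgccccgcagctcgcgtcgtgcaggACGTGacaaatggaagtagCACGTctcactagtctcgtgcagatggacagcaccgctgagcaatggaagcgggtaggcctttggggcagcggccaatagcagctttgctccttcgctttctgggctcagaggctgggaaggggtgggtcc
Ldha: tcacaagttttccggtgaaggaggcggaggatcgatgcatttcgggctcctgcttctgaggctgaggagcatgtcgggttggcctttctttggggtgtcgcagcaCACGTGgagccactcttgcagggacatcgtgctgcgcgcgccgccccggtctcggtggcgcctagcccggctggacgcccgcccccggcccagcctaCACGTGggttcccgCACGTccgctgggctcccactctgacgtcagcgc
These windows lie at chr8:45999851-46000100 (minus strand), chr4:119108495-119108744 (plus), chr6:82774455-82774704 (minus), chrX:106186850-106187099 (plus) and chr7:46845554-46845803 (plus). The Ankrd37 window has 4 matches, a pair of which overlaps, and the Ldha window has 5, where each CACGTG counts once on either strand; the other Ldha start has 1. No start of Gpi1, Tpi1 or Eno2 had a match in its window. A match is a description of letters, not of a bound site.

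Of 27 other HIF pathway genes and targets measured, 11 were above and 7 below counting error in HU against control, beside 18.7% and 20.1% of all genes. In HU plus gold nanocages against HU, 1 was above and 5 below, beside 8.35% and 7.78%. Ddit4, an inhibitor of mTORC1 that p53 also induces, had 49.5 FPKM with HU plus gold nanocages, 53.7 with HU and 7.80 in control, a 6.89-fold difference between HU and control (5.94 to 8.02). Bhlhe40, a transcriptional repressor, was 1.40-fold higher in HU than in control (1.15 to 1.70). Cited2, a brake on HIF that competes for its coactivator p300, was 1.35-fold lower (1.32 to 1.38), at 484.8, 491.0 and 662.2 FPKM. Hmox1, heme oxygenase 1 and also an NRF2 target, was the gene of that list above counting error with HU plus gold nanocages against HU, at 126.7, 96.8 and 65.0 FPKM (1.31-fold, 1.26 to 1.36).

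Of 12 further glycolysis genes measured, 4 were above and none below counting error in HU against control, beside 18.7% and 20.1% of all genes. None was above or below with HU plus gold nanocages against HU, beside 8.35% and 7.78%. Pgam2, the muscle phosphoglycerate mutase, was 2.21-fold higher in HU than in control (1.33 to 3.81), on 51 reads with HU plus gold nanocages, 62 with HU and 21 in control. Slc2a9, a urate and sugar carrier, was 1.33-fold higher (1.16 to 1.52), Pfkfb2 1.32-fold (1.10 to 1.58), and Bsg, the chaperone of the lactate carriers, 1.07-fold (1.035 to 1.115). A list of 13 genes often used as reference genes included Gapdh and Pgk1. In HU against control 4 of the 13 were above and 3 below counting error, beside 18.7% and 20.1% of all genes. The uncertain Gapdh row is 1 of the 4. With HU plus gold nanocages against HU, 3 of the 13 were above and 1, Pgk1, was below, beside 8.35% and 7.78%. Actb, for example, was 1.05-fold lower in HU than in control (1.04 to 1.07), at 1452 FPKM with HU plus gold nanocages, 1429 with HU and 1507 in control.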

How the data were processed

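RNA of 3 libraries, 1 per condition, was analysed. The authors deposited 1 table. Its count columns hold raw whole numbers, 1 for each gene in each library. Its FPKM columns are scaled to length and library, per the file headers; 100% of the deposited FPKM values equal the count divided by exonic length and by the summed count, within rounding. The table also gives exonic length in bases, per the file headers. The submitters' processing notes name build mm10 and the tools SAMtools 0.1.18, HTSeq 0.6.1, HISAT2 2.0.1, DESeq, bcl2fastq 2.17.1.14 and cutadapt. The sources used here give no annotation release, strand setting or treatment of reads that map to several places.

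CPM ratios were taken with exact (Clopper-Pearson) 95% intervals, and log2 ratios with a pseudocount of 1 FPKM. The intervals were tested on simulated Poisson counts, which hold counting error but no variation between cultures. Scaling factors came from edgeR 4.0.16 (TMM) and DESeq2 1.42.0 as alternatives. Genes with a mean of at least 1 FPKM over the 3 libraries were called measured. Copies were genes outside the locus that share at least 50 words of 100 bases with a gene of the set in GENCODE M21, which holds 98% of the table's identifiers. With 1 library per group no test between conditions was possible. All 37 genes are reported, and from each further list up to 4 genes outside the set with the largest log2 ratio in HU against control or in HU plus gold nanocages against HU, if beyond counting error there. Copies are named where they held at least 100 reads in any library. The genes and lists were chosen with earlier results of these data known. 1 read stood for 0.0536, 0.0499 and 0.0667 CPM with HU plus gold nanocages, HU and control.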

Additional observations from a re-analysis of the deposited data

How the results depend on the processing

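With TMM, with median-of-ratios size factors and without mitochondrial and ribosomal RNA reads, each of the 102 single-gene ratios stayed inside its counting interval, and every log2 ratio shifted by between -0.0051 and 0.0049. The counts of genes above or below counting error stayed within 1.5 times under these scalings and other FPKM minimums. Over all alternatives, pseudocounts of 0.1 and 5 FPKM included, the median log2 ratio ran from -0.07 to -0.05 for HU plus gold nanocages against HU, from 0.0048 to 0.0096 (TMM; reported 0.0053) for HU against control, and from -0.06 to -0.03 for HU plus gold nanocages against control, where the reported value was -0.05 and the last that without genes with shared words. Changes past 1.5 times were also found in the counts at least 1.2-fold higher than control, which were 5 for HU plus gold nanocages and 5 for HU and became 3 and 3 with a mean of at least 5 FPKM, because Pfkfb3 and Ankrd37 lie below that mean. Leaving out 5 genes with at least 20% of their 100-base words shared, a choice made after seeing the data, left 29 measured genes. In HU plus gold nanocages against HU, 11 of the 29 were below and 1 above counting error (median -0.06), beside 7.78% and 8.35% of all genes. Summing copies, also chosen after seeing the data, moved the ratios of Gapdh (1.01 with HU plus gold nanocages and 1.04 with HU, against control) and of Eno1 (0.964 with HU plus gold nanocages against HU) out of their intervals. No paired analysis was possible because each condition has 1 library. Depth limits genes such as Ankrd37, whose interval spans 1.74 to 3.69.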

Other observations

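Genes that take carbon out of glycolysis or into the mitochondrion were mostly close to level. In HU against control, 3 of 7 measured pentose phosphate genes lay above counting error and none lay below, beside 18.7% and 20.1% of all genes. These were Pgd, 6-phosphogluconate dehydrogenase (1.12-fold, 1.09 to 1.15), G6pdx, the entry enzyme of the pathway (1.07-fold, 1.04 to 1.11), and Pgls (1.06-fold, 1.005 to 1.12). G6pdx stood at 126.8 FPKM with HU plus gold nanocages, 124.3 with HU and 115.7 in control. Between HU plus gold nanocages and HU none of the 7 was above or below counting error, beside 8.35% and 7.78% of all genes.

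Of 11 measured genes of pyruvate entry, 2 were above and 2 below counting error in HU against control, beside 18.7% and 20.1% of all genes. In HU plus gold nanocages against HU, 2 were above and 1 below, beside 8.35% and 7.78%. Pdp1, the phosphatase that reactivates pyruvate dehydrogenase, had 4.21, 3.90 and 2.69 FPKM with HU plus gold nanocages, HU and control and was 1.45-fold higher in HU than in control (1.21 to 1.74). Mpc2, a subunit of the mitochondrial pyruvate carrier, was 1.135-fold higher in HU than in control (1.015 to 1.27) and 1.13-fold lower with HU plus gold nanocages than with HU (1.02 to 1.26). Dld, the shared dehydrogenase subunit, was 1.08-fold lower in HU than in control (1.03 to 1.13) and 1.06-fold higher with HU plus gold nanocages than with HU (1.02 to 1.11). Pdk3, a kinase of pyruvate dehydrogenase like Pdk1, had 16.3 FPKM with HU plus gold nanocages, 14.6 with HU and 15.9 in control. It was 1.12-fold higher with HU plus gold nanocages than with HU (1.01 to 1.24). Its ratio in HU against control (0.916, 0.822 to 1.02) was within counting error.

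The 3 further reference genes that the naming rule picks were Tfrc, Ppia and Gusb, at 1.17-fold (1.14 to 1.202), 1.135-fold (1.01 to 1.28) and 1.10-fold (1.07 to 1.14) in HU against control. Ppia had 9.34 FPKM with HU plus gold nanocages, 9.78 with HU and 8.61 in control, levels close to those of the uncertain Gapdh row. Copies were looked up only for genes of the set, so whether reads of Ppia lie in other rows was not tested.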
